A study of Mus musculus with 13 samples.

Results

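Dabrafenib given alone was compared with vehicle in SM1 melanomas of mice that had received pmel-1 splenocytes. The comparison rests on 4 of the study's 13 arrays, the 2 that the sample titles assign to pmel-1 transfer with dabrafenib and the 2 assigned to pmel-1 transfer with vehicle. All 13 arrays measured total RNA of SM1 tumours harvested from C57BL/6 hosts, hybridised as biotin-labelled cDNA to Affymetrix GeneChip mouse arrays. Beside dabrafenib and vehicle, the pmel-1 recipients were given trametinib (2 arrays) or both drugs together (3 arrays, called the combination here). These 5 arrays serve to place dabrafenib among the drugs. The remaining 4 arrays come from recipients of C57BL/6 splenocytes and are not compared here. All 13 arrays enter the estimate of the spread, the filter on low levels and the choice of probe set. Every tumour described below therefore comes from 1 tumour line and from a host that received pmel-1 splenocytes, so neither group shows what dabrafenib does without that transfer. Doses and times are not stated in the sources used here. The labels do not say that replicates came from separate animals, so each p-value is set against array to array spread, which may be partly technical.

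SM1 is a mouse melanoma line driven by BRAF V600E, a change that locks the kinase BRAF in its active state. BRAF activates the kinase MEK, MEK activates ERK, and ERK raises transcription of early response genes, of ETS factors and of its own inhibitors. Dabrafenib blocks mutant BRAF and trametinib blocks MEK, the next step of the same chain. ERK signalling also restrains the pigment programme of melanocytes and drives their entry into the cell cycle. The transferred pmel-1 splenocytes carry a T cell receptor that recognises a peptide of Pmel, a melanosome protein, and T cells that meet their antigen release interferon gamma, which induces guanylate-binding proteins, immunity-related GTPases, chemokines and the machinery of antigen presentation.

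Levels are log2 RMA values, so a difference of 1 is a 2-fold change. A gene was taken as passing when its limma adjusted p was under 0.05, and a level under 5.79, the 40th percentile of all values, was treated as not well above background. The 2 dabrafenib arrays were less alike than the 2 vehicle arrays. The SD of the difference between replicates over the 13783 genes tested was 0.36 for dabrafenib and 0.23 for vehicle, and 255 genes differed at least 2-fold between the dabrafenib arrays against 35 between the vehicle arrays. The 3′ over 5′ log2 ratio of the Actb and Gapdh control probe sets, a sign of RNA fragmentation when high, was 0.60 and 1.65 on the dabrafenib arrays and 0.22 and 0.18 on the vehicle arrays. For many of the genes named, though not all, the text states where leaving out an array or adjusting for this ratio ended a call. The same holds for values moved by over 1.5 times. Pigment cell genes were high on all 4 arrays, with summed melanocyte marker levels (log2 of the sum of linear levels) of 17.21 and 17.19 with dabrafenib and 16.58 and 16.59 with vehicle, and 0 of the 19 markers on the array were under the background level throughout.

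Dabrafenib moved a large share of the genes measured, in both directions. Of the 13783 genes tested 5709 passed (41.4%), of which 3012 rose (21.9%) and 2697 fell (19.6%). Counts within gene lists below are to be read beside these shares. At least 2-fold changes were found in 1458 genes (10.6%), 779 higher (5.65%) and 679 lower (4.93%). The arrays of the groups did not overlap in 9773 genes (70.9%). Statements below that groups were apart or did not overlap are to be read beside this share. The 15 largest rises and falls were picked among genes without overlap, so for them the separation follows from the choice. The median change over all genes tested was 0.01. The 15 largest rises held 5 interferon gamma response genes, 2 type I interferon genes, 3 class II antigen presentation genes and 2 pigment cell genes, beside the lipase Mgll, the neuronal adhesion gene Astn1 and Hhatl, which is related to the hedgehog acyltransferases. The 15 largest falls held the embryonic chromatin gene Hmga2, the limb patterning gene Hoxa11, Id1 and Id3, and Hapln1, Col2a1 and Ltbp1, which encode extracellular matrix proteins. The list of fibroblast and matrix genes did not fall, with 1 of 17 higher, 0 lower and a median of 0.50. Without the second dabrafenib array 3643 genes passed, and 2511 passed after adjustment for the 3′ over 5′ ratio.

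**Figure D1:**
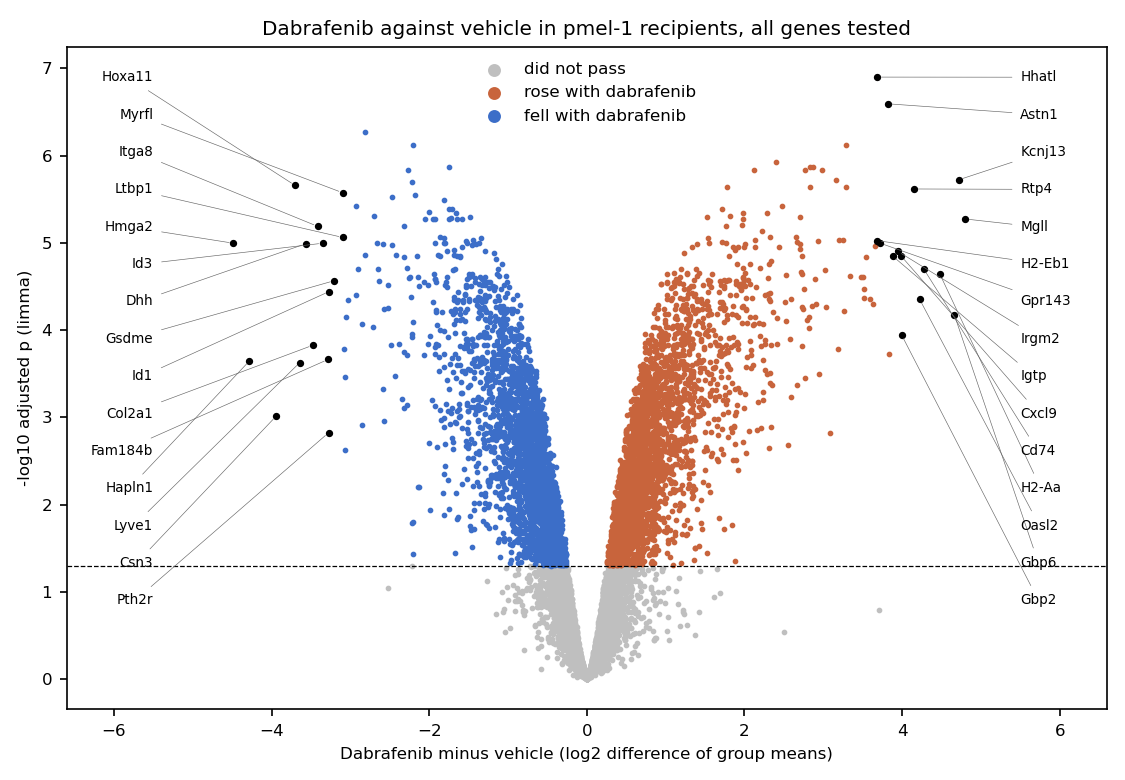
Each point is 1 of the 13783 genes tested. The x axis is the difference of group means, dabrafenib minus vehicle, in log2 units, the y axis is −log10 of the limma adjusted p, and the dashed line marks an adjusted p of 0.05. The 15 largest rises and the 15 largest falls are named. Passing genes spread to both sides, 3012 higher and 2697 lower.

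Genes that report ERK activity fell. Of 21 tested genes of a list of MAPK output 10 fell and 0 rose, with a median change of -0.82. Over all genes 21.9% rose and 19.6% fell. Etv4, an ETS factor induced by ERK, read 7.50 and 7.38 on the dabrafenib arrays and 10.24 and 10.27 on the vehicle arrays. The groups were far apart relative to their replicates, and Etv4 was 7.02-fold lower with dabrafenib (log2 change -2.81, SE 0.12, limma adjusted p = 5.29e-07). Egr1, an early response zinc finger gene, read 7.72 and 7.23 with dabrafenib and 10.66 and 10.41 with vehicle (-3.06, SE 0.34, adjusted p = 7.12e-05). Fos, a subunit of AP-1, read 9.58 and 9.23 with dabrafenib and 12.28 and 11.20 with vehicle (-2.34, SE 0.37, adjusted p = 0.00061). Neither gene overlapped between the groups. Dusp1, a phosphatase of MAP kinases, Spry1, a feedback inhibitor of receptor signalling, Ier3, an early response gene, and Lif, a cytokine, fell by 1.23, 1.51, 1.08 and 0.69 on the log2 scale.

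Several other genes that report ERK activity read much lower on the second dabrafenib array than on the first. Etv5, a close relative of Etv4, read 11.39 and 7.27 with dabrafenib and 11.74 and 11.95 with vehicle. The first dabrafenib array lay near the vehicle level and the second far from it, and the difference of -2.52 (SE 1.10) did not pass (adjusted p = 0.0897). Dusp6, the phosphatase of ERK, read 12.60 and 11.26 with dabrafenib and 12.69 and 12.80 with vehicle, a difference of -0.82 that did not pass (adjusted p = 0.10). Spry4, another feedback inhibitor, read 8.32 and 6.23 with dabrafenib and 8.95 and 10.04 with vehicle, and Ccnd1, the cyclin that drives entry into the cell cycle, read 11.08 and 9.51 with dabrafenib and 11.88 and 12.23 with vehicle. Both passed, with changes of -2.22 (SE 0.64, adjusted p = 0.016) and -1.76 (SE 0.41, adjusted p = 0.0053), and in both the first array lay closer to vehicle. Ccnd1 kept its call in all 4 fits that leave out an array, and Spry4 in 2. After adjustment for the 3′ over 5′ ratio neither passed, with Ccnd1 at -0.64 (adjusted p = 0.23) and Spry4 at -0.41 (adjusted p = 0.64), and Etv5 was at 0.40 and Dusp6 at -0.10. Of the 21 genes of the list 18 read higher on the first dabrafenib array than on the second. Counts of falls were 13 without the first array, 8 without the second and 7 after adjustment for the 3′ over 5′ ratio.

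The pigment programme rose. Of 19 tested melanocyte genes 14 rose and 1 fell, with a median change of 0.83. Over all genes the median was 0.01, with 21.9% higher and 19.6% lower. Kcnj13, a potassium channel gene, read 10.93 and 11.02 with dabrafenib and 6.34 and 6.18 with vehicle (26.4-fold, log2 change 4.72, SE 0.27, limma adjusted p = 1.89e-06). Trpm1, the melastatin cation channel, read 11.88 and 11.97 with dabrafenib and 8.0 and 8.55 with vehicle (12.6-fold, 3.65, SE 0.29, adjusted p = 1.08e-05). Gpr143, a melanosomal receptor, read 11.45 and 11.41 with dabrafenib and 7.53 and 7.89 with vehicle (13.2-fold). In all 3 the dabrafenib arrays agreed within 0.1 and lay far above vehicle. Rab38, which carries cargo to melanosomes, rose by 2.01, the endothelin receptor Ednrb by 1.26 and the melanocortin receptor Mc1r by 0.95, a call that the adjustment for the 3′ over 5′ ratio ended (0.69). Pmel, the antigen of the transferred T cells, read 13.95 and 14.17 with dabrafenib and 12.82 and 12.56 with vehicle (2.58-fold, adjusted p = 6.38e-05).

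The regulators and enzymes at the centre of the pigment programme moved less. Tyr, the rate-limiting enzyme of melanin synthesis, rose by 0.83 (SE 0.10), Dct, another melanin enzyme, by 0.42 (SE 0.09) and Sox10, a transcription factor of the lineage, by 0.46 (SE 0.10). Mitf, the master regulator, read 13.47 and 13.38 with dabrafenib and 12.91 and 13.04 with vehicle (0.45, SE 0.10, adjusted p = 0.0036), but its probe set with the largest variance gave -0.18. The same choice ended the calls of Sox10 (0.05, adjusted p = 0.93) and Tyr (0.52, adjusted p = 0.18), and with it Gpnmb passed (0.55). With the highest-mean probe set, Mlana, at a difference of 0.17, and Gpnmb, at 0.15, did not pass. The 1 fall was Kit, the receptor of stem cell factor, at 8.23 and 7.23 with dabrafenib and 9.42 and 9.66 with vehicle (-1.81, SE 0.31, adjusted p = 0.0010, and -1.03 adjusted for the 3′ over 5′ ratio).

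The promoters of 3 pigment genes that rose are shown because they carry the letters of the M-box, the element through which MITF family factors act. The sequences are from RefSeq on GRCm38.p6, read 5′ to 3′ on the strand of the gene, with the M-box TCATGTG, or its reverse complement, in capitals.
Kcnj13, chr1:87394810-87394866, minus strand: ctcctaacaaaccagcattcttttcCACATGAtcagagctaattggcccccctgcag
Trpm1, chr7:64153668-64153724, plus strand: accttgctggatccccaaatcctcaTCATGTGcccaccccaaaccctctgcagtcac
Tyrp1, chr4:80834141-80834197, plus strand: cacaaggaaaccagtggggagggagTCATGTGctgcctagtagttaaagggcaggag
The M-box letters, searched on both strands of the 250 bases upstream of the start, occurred in 6 of the 12 melanocyte genes with a listed promoter (50%) and in 214 of 11081 tested genes with one (1.93%). These matches describe the letters of the window and not sites in use. Tyrp1, a melanin enzyme, read 5.88 and 6.38 with dabrafenib and 4.96 and 5.21 with vehicle. It was not well above background on the vehicle arrays, and its rise was at least 1.27-fold (limma adjusted p = 0.0030), but it did not pass after adjustment for the 3′ over 5′ ratio (0.52).

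Most members of a list of oncofetal and Hox genes fell. Of 10 tested, most of them Hox genes, 7 fell and 0 rose (median -1.11), beside 19.6% of all genes that fell. The oncofetal gene Igf2bp3 fell by 2.22. Igf2bp1 lay near the vehicle mean on both dabrafenib arrays (-0.05 and -0.10). Hoxa10 fell by 1.05 but did not pass after adjustment for the 3′ over 5′ ratio (-0.66, limma adjusted p = 0.097). Hmga2, an architectural chromatin protein of embryonic cells, read 7.22 and 6.04 with dabrafenib and 10.80 and 11.43 with vehicle, the largest fall of all genes named (22.4-fold lower, -4.48, SE 0.35, adjusted p = 1.01e-05). Hoxa11, a homeobox gene of limb patterning, read 6.79 and 6.17 with dabrafenib and 9.92 and 10.44 with vehicle (13-fold lower, adjusted p = 2.19e-06). The groups did not overlap for either gene, which was a condition for naming the largest falls and held for 70.9% of all genes. Hapln1, a link protein of hyaluronan matrix, read 4.60 and 3.87 with dabrafenib and 8.30 and 8.73 with vehicle, so that it was not well above background with the drug and at least 6.60-fold lower (adjusted p = 0.00023). Dhh, a hedgehog ligand, Col2a1, a cartilage collagen, Itga8, an integrin subunit, and Ltbp1, which binds latent TGF-beta, fell by 3.57, 3.47, 3.41 and 3.09 on the log2 scale, and Col2a1 by 2.26 after adjustment for the 3′ over 5′ ratio. Csn3, a milk casein gene, read 8.46 and 8.02 with dabrafenib and 12.20 and 12.16 with vehicle (-3.94, SE 0.68, adjusted p = 0.00097).

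Id1 and Id3, inhibitors of basic helix-loop-helix factors and known targets of BMP signalling, fell together. Id1 read 6.70 and 6.48 with dabrafenib and 10.42 and 9.29 with vehicle (-3.27, SE 0.33, limma adjusted p = 3.61e-05). Id3 read 7.54 and 8.03 with dabrafenib and 11.55 and 10.73 with vehicle (-3.35, SE 0.26, limma adjusted p = 1.01e-05). The groups were apart for both, a condition for naming the largest falls. Smad7, an inhibitory SMAD, fell by 0.93 (SE 0.20, adjusted p = 0.0034), and after adjustment for the 3′ over 5′ ratio it did not pass (-0.54, adjusted p = 0.14). Smad6 (-0.81, adjusted p = 0.16), Id2 (-0.56, adjusted p = 0.21) and Id4 (-0.91, adjusted p = 0.13) did not pass. With the same adjustment Smad6 passed (-1.72, adjusted p = 0.039), while Id2 (-1.07) and Id4 (0.24) did not.

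**Figure D2:**
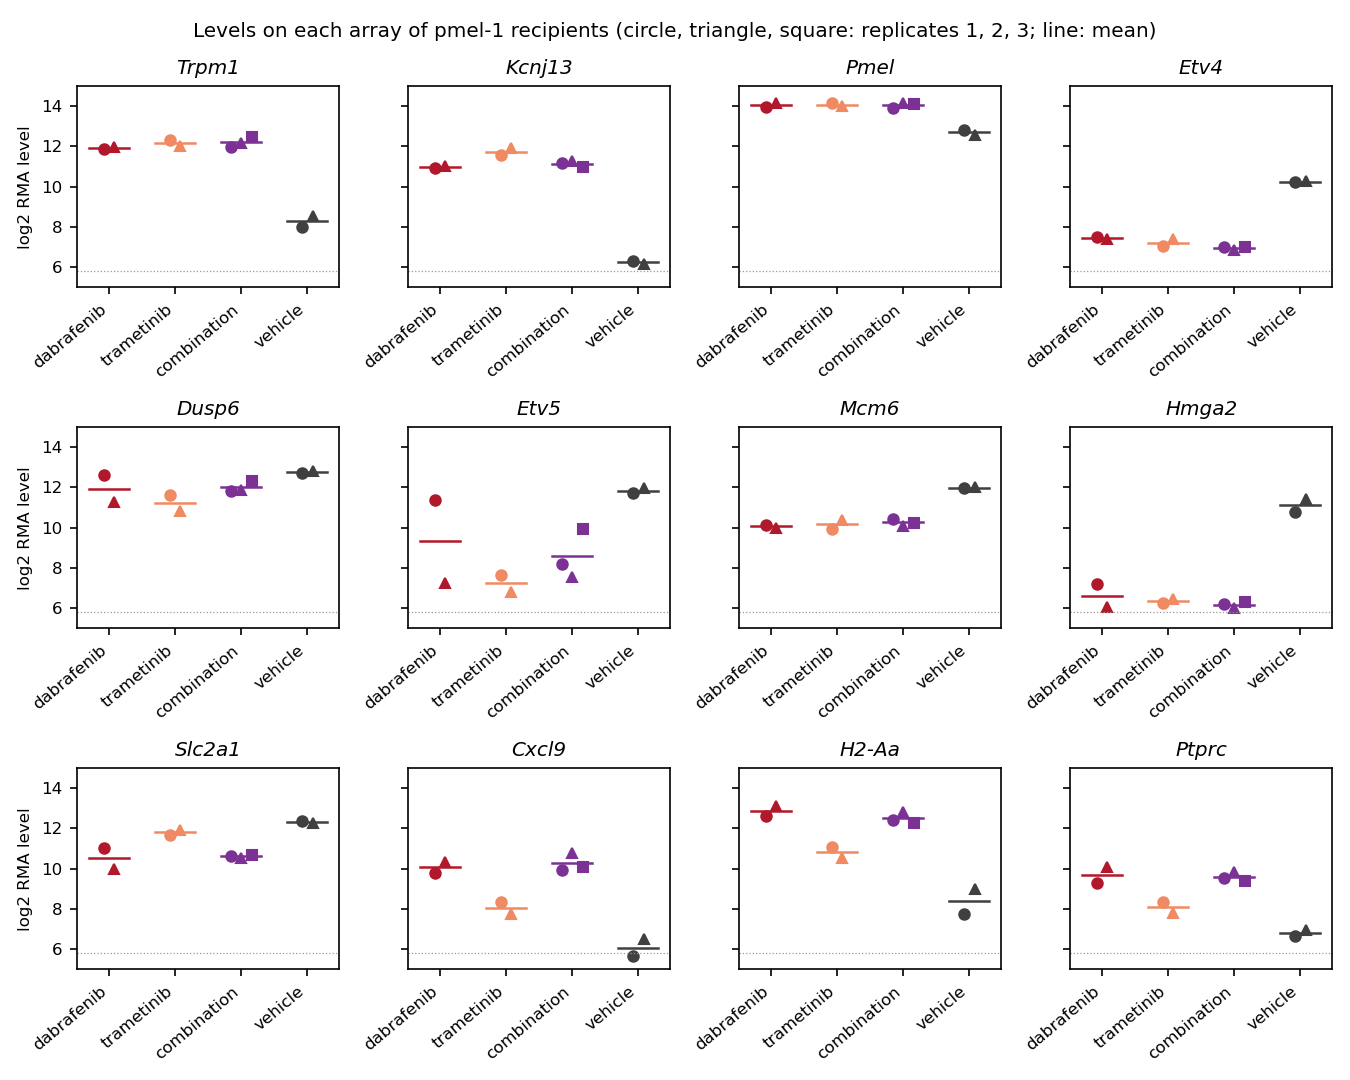
Levels of 12 genes on each array of pmel-1 recipients, in log2 RMA units on the y axis, by drug on the x axis. Circles, triangles and squares are replicates 1, 2 and 3, the line is the group mean and the dotted line is the background level of 5.79. Etv5 splits the dabrafenib arrays at 11.39 and 7.27, while Trpm1, Etv4 and Mcm6 read alike on both.

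The replication machinery fell. Of 18 tested DNA replication genes 16 fell and 0 rose (median -1.19). Of 17 mitotic genes 5 fell and 0 rose (median -0.23), to be read beside the 19.6% of all genes that fell. The difference between the lists was not tested. Mcm6, a subunit of the replicative helicase, read 10.15 and 9.97 with dabrafenib and 11.96 and 12.01 with vehicle (3.79-fold lower, -1.92, SE 0.15, adjusted p = 1.01e-05). Cdc6, which loads that helicase, read 5.62 and 6.04 with dabrafenib and 8.19 and 8.41 with vehicle (5.54-fold lower, adjusted p = 1.05e-05). The groups were apart for both. Pcna, the polymerase clamp, fell by 1.36. Of 15 tested G1 cyclins, kinases and inhibitors 7 fell and 2 rose, beside 19.6% and 21.9% of all genes. Among them Ccne2, an S phase cyclin, fell by 1.77, while the kinase Cdk2 rose by 1.30 (limma adjusted p = 0.00019). Ccnd2, at 0.04, did not pass. Of the mitotic genes Aurkb, a kinase of chromosome segregation, fell by 1.59 (SE 0.22, adjusted p = 0.00029), and without the first dabrafenib array 3 mitotic genes rose and 4 fell. Mki67, a general marker of cycling cells, read 11.71 and 12.14 with dabrafenib and 11.66 and 11.36 with vehicle, and its difference of 0.41 did not pass (adjusted p = 0.092). With the 3′ over 5′ ratio adjusted for, the Mki67 difference was 0.05.

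Replication promoters are shown because several hold the letters of E2F, the factor family of the G1 to S transition. Capitals mark TTTGGCG or TTTCCCG or the reverse complement of either.
Cdc6, chr11:98907989-98908045, plus strand: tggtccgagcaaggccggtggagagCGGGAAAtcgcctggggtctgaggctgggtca
Mcm6, chr1:128359721-128359840, minus strand: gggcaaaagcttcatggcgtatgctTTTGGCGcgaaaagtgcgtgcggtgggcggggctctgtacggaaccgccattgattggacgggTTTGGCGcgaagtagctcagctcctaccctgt
Mcm5, chr8:75109336-75109392, plus strand: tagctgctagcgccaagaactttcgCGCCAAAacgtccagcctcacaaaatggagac
These letters occurred in 6 of 15 replication genes with a listed promoter (40%) and in 727 of 11081 tested genes (6.56%), on either strand. In Mcm6 they occurred at 2 places. Mcm5, another helicase subunit, read 10.81 and 11.40 with dabrafenib and 12.38 and 12.46 with vehicle (2.48-fold lower, limma adjusted p = 0.00047). The ETS letters CCGGAAG occurred in 0 of 13 MAPK output genes with a listed promoter and in 1411 of the 11081 tested genes (12.7%).

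Biosynthesis genes fell with replication. Of 16 tested ribosome biogenesis genes 12 fell and 0 rose (median -0.75), of 12 sterol synthesis genes 9 fell and 0 rose (median -0.80), and of 11 genes of the integrated stress response 8 fell and 0 rose (median -0.95). The share of all genes that fell was 19.6%. Nolc1, a nucleolar phosphoprotein, read 8.76 and 7.88 with dabrafenib and 10.22 and 10.25 with vehicle (-1.92, SE 0.24, adjusted p = 0.00015). Fdps, an enzyme of the mevalonate pathway, read 9.0 and 8.61 with dabrafenib and 10.77 and 10.60 with vehicle (-1.88, SE 0.25, adjusted p = 0.00020). Asns, asparagine synthetase, read 9.29 and 8.62 with dabrafenib and 10.61 and 10.77 with vehicle (-1.73, SE 0.24, adjusted p = 0.00024). None of the 3 overlapped between the groups. After adjustment for the 3′ over 5′ ratio Nolc1 was at -1.25 and Asns at -1.08, and both still passed.

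Hypoxia and heat shock genes fell on the 4 arrays together, but their counts depend on single arrays. Of 13 tested hypoxia and glycolysis genes 9 fell and 0 rose (median -1.25), and of 11 heat shock chaperones 8 fell and 0 rose, beside 19.6% of all genes that fell. Slc2a1, the main glucose transporter of tumour cells, read 11.03 and 9.99 with dabrafenib and 12.35 and 12.29 with vehicle (-1.81, SE 0.33, limma adjusted p = 0.0013). Bnip3, a mitochondrial gene induced by hypoxia, read 11.96 and 10.46 with dabrafenib and 12.87 and 12.86 with vehicle, and Egln3, an oxygen sensor, 7.66 and 6.74 with dabrafenib and 9.77 and 9.67 with vehicle. In all 3 the second array was the lower. After adjustment for the 3′ over 5′ ratio Slc2a1 (-0.99, adjusted p = 0.055) and Bnip3 (-0.59) did not pass, nor did Bnip3 without the second dabrafenib array (-0.91). Without the second dabrafenib array the falls numbered 5 for hypoxia and 2 for heat shock, without the first vehicle array 7 and 3, and 3 and 1 after adjustment for the 3′ over 5′ ratio. The part of RNA quality in these falls was not tested beyond this adjustment.

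**Figure D3:**
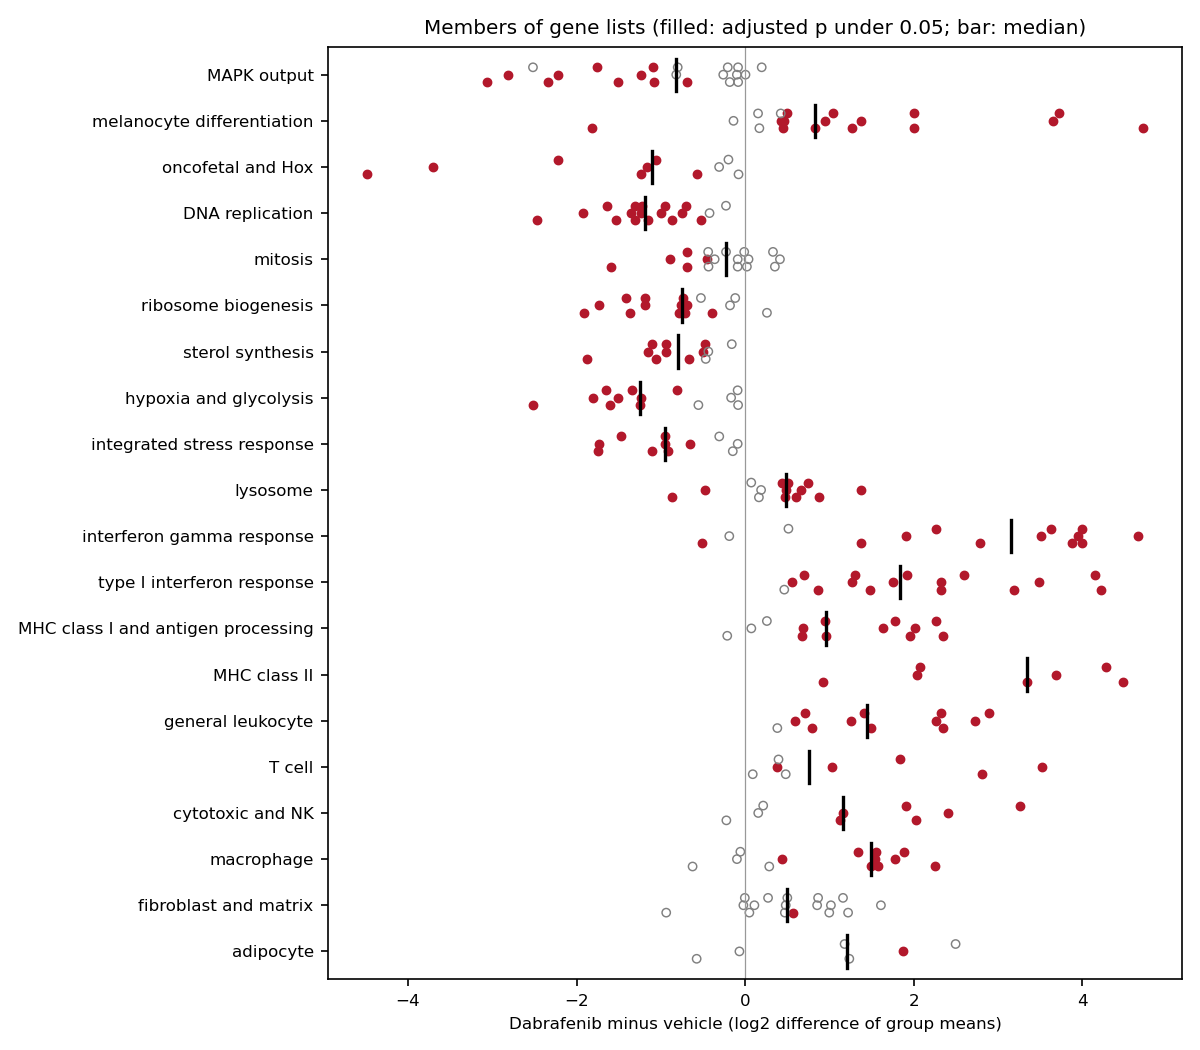
Members of 20 gene lists, 1 point a gene, with the difference of group means, dabrafenib minus vehicle, in log2 units on the x axis. Filled points passed at an adjusted p under 0.05, open points did not, and the black bar is the median of the list. All 7 class II genes and 11 of 14 interferon gamma genes lie to the right and filled, and 16 of 18 replication genes lie to the left and filled.

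Interferon-induced genes rose. Of 14 tested interferon gamma response genes 11 rose and 1 fell (median 3.15), and of 16 type I interferon genes 15 rose and 0 fell (median 1.84). The shares over all genes were 21.9% higher and 19.6% lower. Gbp6, a guanylate-binding protein, read 10.01 and 11.62 with dabrafenib and 6.06 and 6.23 with vehicle (25.4-fold, 4.66, SE 0.52, adjusted p = 6.73e-05). Cxcl9, a chemokine that draws activated T cells, read 9.79 and 10.34 with dabrafenib and 5.64 and 6.50 with vehicle (15.9-fold, 3.99, SE 0.34, adjusted p = 1.42e-05). Igtp, an immunity-related GTPase, read 11.23 and 11.88 with dabrafenib and 7.75 and 7.60 with vehicle (14.7-fold). In each gene both dabrafenib arrays lay far above both vehicle arrays, though arrays without overlap were a condition for naming the largest rises. Of the type I genes Rtp4 read 10.83 and 11.08 with dabrafenib and 6.99 and 6.61 with vehicle (17.8-fold, adjusted p = 2.41e-06), and Ifit3 rose by 3.19 (SE 0.41). Irf1, a transcription factor of the response, rose by 1.91 (SE 0.31, adjusted p = 0.00072), and Cd274, the checkpoint ligand PD-L1, read 7.76 and 8.81 with dabrafenib and 6.48 and 6.35 with vehicle (3.67-fold, adjusted p = 0.00047). Cxcl10 rose by 1.37 (adjusted p = 0.031) and Cxcl11, the 1 fall, changed by -0.51 (adjusted p = 0.041), and each kept its call in 1 of the 4 fits that leave out an array. After adjustment for the 3′ over 5′ ratio Irf1 was at 1.05, Cd274 at 1.09 and Cxcl11 at -0.92, all passing, and Cxcl10 at 0.79, not passing. Of the 14 interferon gamma genes 13 read higher on the second dabrafenib array. Guanylate-binding proteins and class I genes have near-identical relatives whose transcripts can share probes, so single members are uncertain.

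The promoters of 3 interferon genes are shown because they hold the elements through which interferon-activated factors bind. Capitals mark the interferon-stimulated response element (ISRE, GAAA and GAAA with any 2 bases between them) and the gamma-activated sequence TTCNNNGAA, where N is any base, on either strand.
Gbp2, chr3:142620579-142620638, plus strand: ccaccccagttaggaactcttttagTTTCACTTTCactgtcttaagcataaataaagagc
Irgm2, chr11:58214888-58214947, plus strand: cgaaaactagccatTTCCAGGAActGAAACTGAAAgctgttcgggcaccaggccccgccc
Igtp, chr11:58199497-58199555, plus strand: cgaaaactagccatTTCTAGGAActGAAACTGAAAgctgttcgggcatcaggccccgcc
The ISRE letters occurred in 7 of 10 interferon gamma genes with a listed promoter (70%), in 5 of 11 type I genes (45.5%) and in 280 of 11081 tested genes (2.53%). The TTCNNNGAA letters occurred in 3 of 10 (30%), 2 of 11 (18.2%) and 656 of 11081 (5.92%). Igtp and Irgm2 are close relatives and their windows are alike outside a few bases, so they are not independent examples. Irgm2 read 10.32 and 10.93 with dabrafenib and 6.95 and 6.41 with vehicle, and Gbp2 read 10.36 and 11.39 with dabrafenib and 6.89 and 6.88 with vehicle.

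Antigen presentation genes rose. All 7 tested class II genes rose (median 3.35), and of 13 class I and processing genes 10 rose and 0 fell (median 0.96). The share of all genes that rose was 21.9%. H2-Aa, a class II chain, read 12.60 and 13.11 with dabrafenib and 7.73 and 9.02 with vehicle (22.3-fold, 4.48, SE 0.41, limma adjusted p = 2.30e-05). Cd74, the invariant chain, read 12.46 and 13.02 with dabrafenib and 7.86 and 9.08 with vehicle (19.4-fold). The vehicle arrays differed from each other by more than 1 in both genes, and the dabrafenib arrays lay above both. Ciita, the transactivator of class II genes, read 6.47 and 6.83 with dabrafenib and 5.63 and 5.83 with vehicle (1.90-fold, adjusted p = 0.00048). Of the class I pathway the peptide transporter Tap1 rose by 2.02 (SE 0.28, and by 1.29 adjusted for the 3′ over 5′ ratio), the immunoproteasome subunit Psmb8 by 1.96 (SE 0.19) and the heavy chain H2-K1 by 0.94 (SE 0.09). B2m, the light chain, did not pass (0.26, adjusted p = 0.083). The class II count was 7 in each of the fits that leave out an array and after adjustment for the 3′ over 5′ ratio.

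The Y-box TGATTGG, an element of class II promoters, is in capitals in the windows of 2 genes that rose.
H2-Aa, chr17:34287842-34287898, minus strand: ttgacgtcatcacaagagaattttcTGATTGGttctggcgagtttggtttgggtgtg
H2-Eb1, chr17:34305781-34305837, plus strand: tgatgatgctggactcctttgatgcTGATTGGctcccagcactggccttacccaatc
It occurred on either strand in 2 of 4 class II genes with a listed promoter (50%) and in 1061 of 11081 tested genes (9.57%). H2-Eb1 read 11.42 and 12.13 with dabrafenib and 7.75 and 8.43 with vehicle.

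General leukocyte, macrophage, cytotoxic and T cell genes rose with dabrafenib. Of 12 tested general leukocyte genes 11 rose and 0 fell (median 1.45), of 13 macrophage genes 9 and 0 (median 1.49), of 9 cytotoxic and NK genes 6 and 0 (median 1.16), and of 8 T cell genes 5 and 0 (median 0.76). A gene was tested only when it was above 5.79 on at least 2 of the 13 arrays. Gzma, Gzmb, Klrd1, Klrk1, Cd3g and Ms4a4b were under that level with vehicle and above it with dabrafenib. The T cell and cytotoxic counts and medians therefore lean towards rises. Other immune lists gave fewer calls, with 2 of 7 checkpoint, 1 of 5 dendritic cell, 1 of 4 B cell and 1 of 3 neutrophil genes higher and 0 lower, 2 of 16 chemokines higher and 1 lower, and 0 of 7 suppressive macrophage genes higher and 2 lower (median -0.34), shares to be read beside the 21.9% and 19.6% of all genes. The B cell count uses an Ighm probe set at -0.02, while its probe set of largest variance rose by 1.68 (limma adjusted p = 4.48e-05). Because these are whole tumours, more cells of a type and more RNA per cell cannot be told apart. Ptprc, the pan-leukocyte antigen CD45, read 9.31 and 10.08 with dabrafenib and 6.67 and 6.94 with vehicle (7.42-fold, 2.89, SE 0.27, limma adjusted p = 2.62e-05). Csf1r, the growth factor receptor of macrophages, read 10.78 and 11.70 with dabrafenib and 8.85 and 9.12 with vehicle (4.78-fold, adjusted p = 0.00028). Both groups were apart in each gene. Clec7a, a receptor of myeloid cells for fungal glucans, rose 9.80-fold (adjusted p = 2.31e-06), and Ccl5, a chemokine of T and NK cells, rose 5.31-fold (adjusted p = 0.00014). After adjustment for the 3′ over 5′ ratio 8 leukocyte and 5 macrophage genes rose and 1 macrophage gene fell, and Csf1r was at 1.41, still passing.

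Within the T cell and cytotoxic lists levels varied widely. Ms4a4b, a gene of T cells, read 7.97 and 8.03 with dabrafenib and 4.32 and 4.64 with vehicle, so that it was not well above background with vehicle and rose at least 4.62-fold (adjusted p = 4.23e-05). Cd3g, a CD3 chain, read 6.26 and 6.58 with dabrafenib and 4.46 and 4.70 with vehicle (at least 1.54-fold, adjusted p = 0.00040). Gzma, a granzyme, read 7.12 and 7.45 with dabrafenib and 5.41 and 5.10 with vehicle (at least 2.81-fold). The vehicle arrays were under the background level for all 3. Nkg7, a granule protein, rose by 1.90 (SE 0.24) and Gzmb at least 1.84-fold (adjusted p = 0.011), though Gzmb did not pass after adjustment for the 3′ over 5′ ratio (1.08, adjusted p = 0.14). Cd8a, a marker of CD8 T cells, does not tell transferred from host cells. It read 6.49 and 6.51 with dabrafenib and 6.52 and 6.29 with vehicle and did not pass. Prf1, perforin, read 5.95 and 5.84 with dabrafenib and 6.13 and 6.11 with vehicle and did not pass. Defining genes of the T cell list (Cd247, Cd2, Cd5, Cd8b1) and the cytotoxic list (Gzmk, Ifng, Fasl, Tbx21) were under the background level on all 4 arrays.

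Summed marker levels show how other cell types moved beside these genes. The macrophage sum was 13.35 and 14.06 with dabrafenib and 12.25 and 12.41 with vehicle, and the leukocyte sum 12.42 and 13.09 with dabrafenib and 11.01 and 11.06 with vehicle. Fibroblast sums were 14.52 and 15.39 with dabrafenib and 14.68 and 14.41 with vehicle, and adipocyte sums 10.13 and 12.93 with dabrafenib and 10.94 and 10.91 with vehicle. In the stromal and fat sums only the second dabrafenib array lay above vehicle, and in the immune sums both did. Keratinocyte genes Krt14, Krt1 and Sfn, B cell genes Ms4a1 and Cd79b and neutrophil genes S100a8, S100a9, Cxcr2 and Elane were under the background level on all 4 arrays. The part of a changed share of cells in the results above was not tested.

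Fat and matrix genes set the 2 dabrafenib arrays apart. Adipoq, the hormone of fat cells, read 4.92 and 10.32 with dabrafenib and 5.50 and 4.75 with vehicle, and did not pass (adjusted p = 0.29). Col1a1, the main collagen of fibroblasts, read 9.35 and 11.69 with dabrafenib and 9.30 and 8.52 with vehicle, and did not pass (adjusted p = 0.12). The first dabrafenib array lay at the vehicle level in both genes. Of 17 tested fibroblast and matrix genes 16 read higher on the second dabrafenib array, and 1 of the 17 rose in the comparison with vehicle, against 7 without the first dabrafenib array, 0 without the second and 0 without the second vehicle array. High Adipoq was not particular to dabrafenib, since it read 9.30 and 5.41 with trametinib and 5.47, 10.05 and 7.54 with the combination. Across the whole comparison, 107 of the genes that passed differed at least 2-fold between the dabrafenib arrays, as did 148 genes that did not pass.

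**Figure D4:**
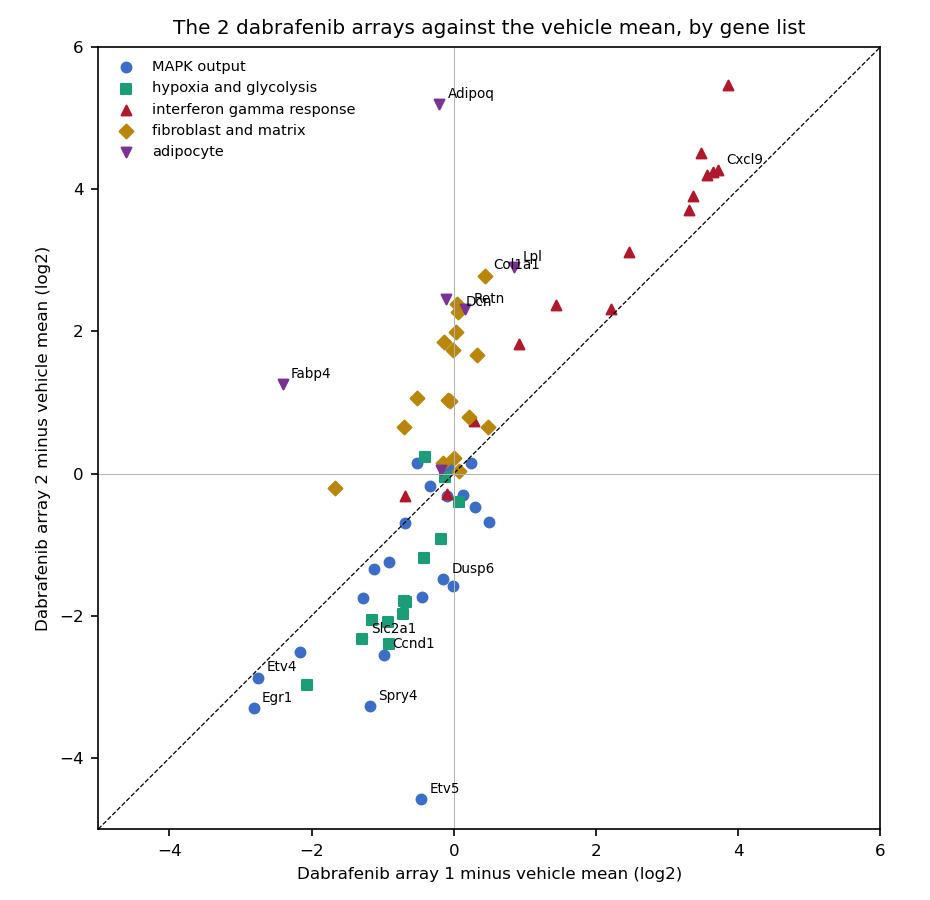
Each point is a gene of 5 lists. The x axis is the first dabrafenib array minus the vehicle mean and the y axis the second dabrafenib array minus the vehicle mean, both in log2 units, and the dashed line marks equal values. Most interferon genes lie high on both arrays and a little above the line, while Adipoq and Etv5 lie far from it, each displaced on the second array only.

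The 2 drug against drug comparisons placed dabrafenib among the treatments of pmel-1 recipients, at whatever doses were used. Against trametinib 107 of 13783 genes passed (0.776%), 81 higher (0.588%) and 26 lower (0.189%) with dabrafenib, and 1620 had an unadjusted p under 0.05 (11.8%). The arrays of the 2 drugs did not overlap in 5558 genes (40.3%). Of the 81 genes higher with dabrafenib 26 belong to an interferon, antigen presentation or immune cell list. Class II genes passed in 6 of 7 cases, general leukocyte genes in 7 of 12 and interferon gamma genes in 4 of 14, all higher with dabrafenib. No gene of the MAPK output, melanocyte, DNA replication or hypoxia lists passed in this comparison by limma. Their median differences were 0.23, -0.03, 0.09 and -0.84 in that order. Of 13 hypoxia genes 0 had a higher mean with dabrafenib than with trametinib, a difference that was not tested for the list. H2-Eb1 read 11.42 and 12.13 with dabrafenib and 9.71 and 9.31 with trametinib (2.27, SE 0.28, adjusted p = 0.0100), and Cd74 12.46 and 13.02 with dabrafenib and 10.36 and 10.42 with trametinib (2.35, SE 0.38, adjusted p = 0.023). Ptprc read 9.31 and 10.08 with dabrafenib and 8.35 and 7.80 with trametinib (1.62, SE 0.27, adjusted p = 0.026). The groups did not overlap in these genes, which for H2-Eb1 and Cd74 was a condition of their choice. The heat shock genes Hspa1a, at 8.25 and 6.91 with dabrafenib and 10.43 and 10.46 with trametinib, and Hspa1b, whose sequence is nearly the same, were lower with dabrafenib (-2.86 and -2.55). Both lost the call with only the arrays of pmel-1 recipients in the fit (limma adjusted p = 0.075 and 0.080). With the replicate number as a block they lost it too (0.063 and 0.065). Cldn5, a junction protein of endothelium, read 6.79 and 6.76 with dabrafenib and 8.63 and 8.24 with trametinib (-1.66, SE 0.27, adjusted p = 0.026).

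The count against trametinib is unstable. It was 0 with only the arrays of the 2 drugs in the fit, 0 without the second trametinib array, 8 without the second dabrafenib array, 283 without the first, 23 without the first trametinib array and 24 with the replicate number as a block. Differences that did not pass include Dusp6, at 0.69 (95% interval -0.12 to 1.51), Etv4, at 0.23 (-0.04 to 0.50), and Trpm1, at -0.24 (-0.88 to 0.40).

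Against the combination 0 of 13783 genes passed by limma (0%), and 246 had an unadjusted p under 0.05 (1.78%). The 95% interval of the difference lay within 1 log2 unit of 0 for 13526 genes (98.1%), with a median half-width of 0.29. Pmel differed by -0.00 (interval -0.31 to 0.30), Cxcl9 by -0.20 (-0.88 to 0.47), Ptprc by 0.12 (-0.42 to 0.66) and Etv4 by 0.47 (0.23 to 0.72, not passing after adjustment). Etv5, at 0.76, had an interval of -1.44 to 2.96, too wide to bound its difference. A p that misses the threshold does not show that dabrafenib alone and the combination act alike. Both sets of arrays were also compared with the same 2 vehicle arrays, so their changes against vehicle share that reference.

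**Figure D5:**
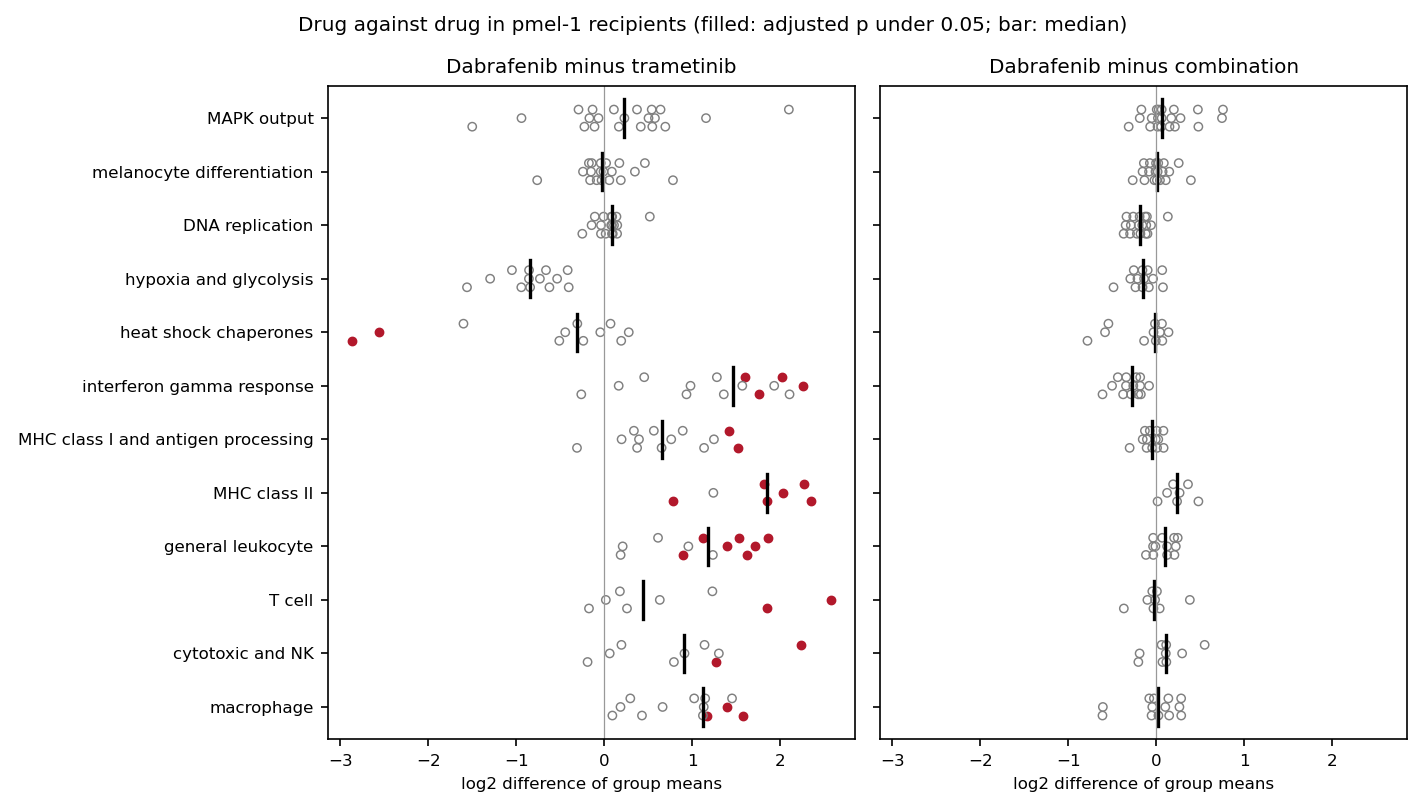
Members of 12 gene lists, 1 point a gene, with the difference of group means in log2 units on the x axis, for dabrafenib minus trametinib at left and dabrafenib minus the combination at right. Filled points passed at an adjusted p under 0.05 and the black bar is the median of the list. Filled points are found at left only, mostly among class II, leukocyte and interferon genes, and 0 genes passed at right.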

How the data were processed

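Total RNA of SM1 tumours was measured on 13 arrays. The authors deposited log2 probe set values made with RMA and the affy package, per the submitters' processing notes; no version or build is given in the sources used here. Of 45101 probe sets 64 are controls, 34945 have 1 symbol in the platform annotation, 932 several and 9160 none. The highest-mean probe set represented each of 18193 symbols, and 13783 genes above 5.79 in at least 2 arrays were tested. Group means over all 13 arrays were fitted with limma 3.58.1 in R 4.3.3 (7 residual degrees of freedom, eBayes, Benjamini-Hochberg), with a variance common to the groups. The number of arrays limits the precision. The fit was also run on simulated data with independent noise and the same spread in all groups. That setting cannot show how an unequal spread between groups affects the calls.

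An "at least" fold sets the brighter group's mean against the background level. Promoters are RefSeq's, GRCm38.p6, with the first listed for each gene. Intervals are at 95% confidence.

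Members and lists were chosen with earlier results of these data known, and the lists describe rather than test. Genes named are the 15 largest rises and falls without overlap, the anchor and the 5 most significant members of a list, and the 5 largest differences each way between drugs. Etv5, Spry4, Spry2, Ccnd1, Car9, Cd8a, Mki67, Mitf, Sox10, Dct, Tyr, Kit, Cxcl10, Cxcl11, B2m, Prf1, Gzmb, Clec7a, Psmb8, Id2, Id4, Smad6, Smad7 and Fabp7 were added after their values were seen, as were other list members outside the rule. Replicate numbers were not used to pair the samples in the main fit. Some members of the lists are not reported here.

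Alternatives were other sets of arrays, each array left out, a replicate block, median centring, quantile normalization, other filters and probe sets, a variance trend, array weights and adjustment for the 3′ over 5′ ratio.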

Additional observations from a re-analysis of the deposited data

How the results depend on the processing

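For dabrafenib against vehicle the count of passing genes was 5709 and lay between 4237, with only the 4 arrays, and 6447 in the settings not named here. It was 2511 after adjustment for the 3′ over 5′ ratio (1315 higher, 1196 lower) and 3307 without the 3 arrays of highest Adipoq (1734 higher, 1573 lower), an alternative chosen after seeing the data. Leaving out 1 array gave 3643 to 5689 in all, 1865 to 3030 higher and 1778 to 2659 lower. The fewest came without the second dabrafenib array. For dabrafenib against trametinib the count of 107 became 0 with only the arrays compared, 24 with a replicate block, 167 with quantile normalization, 191 with that adjustment, 27 without the 3 arrays of highest Adipoq, and 0 to 283 without 1 array. The share of these calls that was higher with dabrafenib was 75.7%, against 62.9% with median centring. Against the combination it was 0 in every setting tried. The cause of these shifts was not tested.

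The replicate numbers do not pair the samples: the deviations of same-numbered dabrafenib arrays correlated at -0.13 with vehicle, -0.37 with trametinib and 0.28 with the combination. With the replicate number as a block 5109 genes passed against vehicle, 24 against trametinib and 0 against the combination, and with crossed pairing, added after seeing the data, 5265 passed against vehicle and 52 against trametinib.

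Of 273 single-gene results 152 kept direction and call in every setting, and 100 lost or gained a call in at least 1. Reversals numbered 5: Gjc3 (1.39), Bcl2 (0.22), Ighm (1.68) and Mitf (-0.18) with the probe set of largest variance, and Actb (2e-04) with the ratio adjusted for. Gjc3 and Ighm passed as rises with that probe set (limma adjusted p = 0.0036 and 4.48e-05). Over all genes, 123 of the 5709 calls against vehicle passed in the opposite direction with the probe set of largest variance. Signal over background limits genes such as Cd3g and Gzma, whose changes have only a lower bound.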

Other observations

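Cdh1, the epithelial cadherin that binds melanocytes to keratinocytes, read 11.82 and 12.27 with dabrafenib and 9.09 and 8.92 with vehicle (8.23-fold higher, limma adjusted p = 5.46e-05), and Cdh2, the neural cadherin, read 9.53 and 8.89 with dabrafenib and 10.88 and 10.97 with vehicle (3.30-fold lower, adjusted p = 6.09e-05). Of 12 genes of epithelial and mesenchymal state 1 rose and 5 fell, beside 21.9% higher and 19.6% lower over all genes. Snai1, a mesenchymal transcription factor, was at least 1.59-fold lower. Twist1, another, fell by 1.29, but it did not pass after adjustment for the 3′ over 5′ ratio (-0.55, adjusted p = 0.16) or without the 3 arrays of highest Adipoq (-0.87, adjusted p = 0.063). Of 16 neural crest and glial genes 2 rose, Fabp7 by 2.22 and S100b by 1.52, and 2 fell, Nes by 0.97 and Aqp1 by 0.94, fewer calls than the 21.9% higher and 19.6% lower over all genes. Of 15 receptor tyrosine kinases 5 rose and 3 fell, the falls near the share over all genes. Met, the receptor of hepatocyte growth factor, read 13.12 and 13.08 with dabrafenib and 10.92 and 11.13 with vehicle (4.21-fold higher, adjusted p = 1.72e-05), and Tyro3 rose by 0.88. Igf1r, a receptor of insulin-like growth factors, read 8.64 and 7.76 with dabrafenib and 10.08 and 10.36 with vehicle (4.05-fold lower, adjusted p = 0.00014), and Fgfr1 fell by 1.05.

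Counts among survival, mitochondrial and endothelial genes were near the shares over all genes, 21.9% higher and 19.6% lower. Of 11 BCL2 family genes 2 rose, the death promoter Bmf by 0.86 and the survival gene Mcl1 by 0.47, and 3 fell, Bik by 1.37, Bcl2l1 by 0.61 and Bcl2 by 0.57. Of 14 lysosome genes 9 rose and 2 fell, and of 16 oxidative phosphorylation genes 2 rose and 4 fell. Ppargc1a, the coactivator of mitochondrial biogenesis, read 10.06 and 10.05 with dabrafenib and 8.77 and 8.08 with vehicle (3.10-fold higher, adjusted p = 0.00049). Of 13 endothelial genes 2 rose and 4 fell, and the 2 tested erythroid genes fell, with Alas2, an enzyme of haem synthesis, at 6.50 and 5.89 with dabrafenib and 8.80 and 7.88 with vehicle. Bmf, Mcl1, Bcl2 and Alas2 each lost the call in 2 of the 4 fits that leave out an array, and these 4 and Bcl2l1 lost it after adjustment for the 3′ over 5′ ratio.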
